A study of Macaca mulatta with 11 samples.

Results

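HSD11B1 encodes 11-beta-hydroxysteroid dehydrogenase type 1, an enzyme of the endoplasmic reticulum that turns inactive cortisone into active cortisol inside the cell. Its transcript was measured in cumulus cells of the rhesus monkey, the somatic cells around the oocyte, on 11 Affymetrix Rhesus Macaque arrays. All probe sets annotated with the symbol HSD11B1 were taken. There was 1 (MmugDNA.31533.1.S1_at) among 24956 probe sets with a single gene symbol, so HSD11B1 was 1 of 14132 genes measured. The PM group (pre-maturation, 4 arrays) came from immature cumulus-oocyte complexes of FSH-stimulated animals that had received no further hormone. For the IVM group (3 arrays) complexes from FSH stimulation were matured in vitro, and for the VVM group (4 arrays) maturation took place in vivo under human chorionic gonadotropin (hCG), again following FSH. The FSH stimulation is thus shared by all groups, and a group without it was not analysed here. The series contrasts in vitro with in vivo maturation in search of cumulus markers of oocyte quality, with PM as the starting state. The labels give no ages and do not say whether arrays of a group represent separate animals or pools, so p-values here rest on the spread between these arrays alone, which may be technical.

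Cortisol is supplied to tissues partly as inert cortisone, and the type 1 enzyme regenerates it locally. The reaction uses NADPH that H6PD makes inside the endoplasmic reticulum from glucose 6-phosphate, which the transporter SLC37A4 brings in, while HSD11B2 catalyses the reverse step. Cortisol then binds the glucocorticoid receptor NR3C1, which is held in the cytoplasm by chaperones and switches genes such as FKBP5 and ZBTB16. In the ovary, granulosa-lineage cells are known to raise HSD11B1 around ovulation, and local cortisol is thought to temper the inflammatory events of follicle rupture.

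All values below are log2 of the deposited RMA intensities unless an intensity is named. The array medians over all probe sets lay between 5.34 and 5.53. Each of the 11 arrays resembled its own group more than another one. The 4 brightest granulosa and cumulus markers, INHA, SERPINE2, FST and VCAN, had group means from 11.84 to 14.53, and others of the 19 measured were dimmer. Of the 19, 5 were higher and 10 lower in VVM than in PM (adjusted p under 0.05, limma). In IVM, 5 were higher and 7 lower than in PM, and 7 higher and 1 lower than in VVM. These are 78.9%, 63.2% and 42.1% of the list, against 39.8%, 45.9% and 16.7% of all genes. FSHR and FOXL2 were not analysed here. These are bulk samples, so more cells of a type and more RNA per cell cannot be told apart.

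HSD11B1 was near the array medians before maturation and among the bright transcripts after in vivo maturation, with the in vitro arrays between and widely spread. In PM the intensities were 38.0, 26.2, 47.7 and 44.2 for arrays 1 to 4. In IVM they were 1930 for array 1, 410 for array 2 and 216 for array 3. In VVM they were 8623, 8106, 12545 and 5358. No array of any group overlapped another group: the lowest IVM array was 4.53 times the highest PM array, and the lowest VVM array was 2.78 times the highest IVM array. On the log2 scale PM averaged 5.25 ± 0.38 (SD, n = 4), IVM averaged 9.12 ± 1.62 (SD, n = 3) and VVM averaged 13.02 ± 0.50 (SD, n = 4). The order of the levels was therefore PM, IVM, VVM. The gap between the closest IVM and VVM arrays, 1.47, was smaller than the SD within IVM, and that between PM and IVM, 2.18, was larger.

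**Figure D1:**
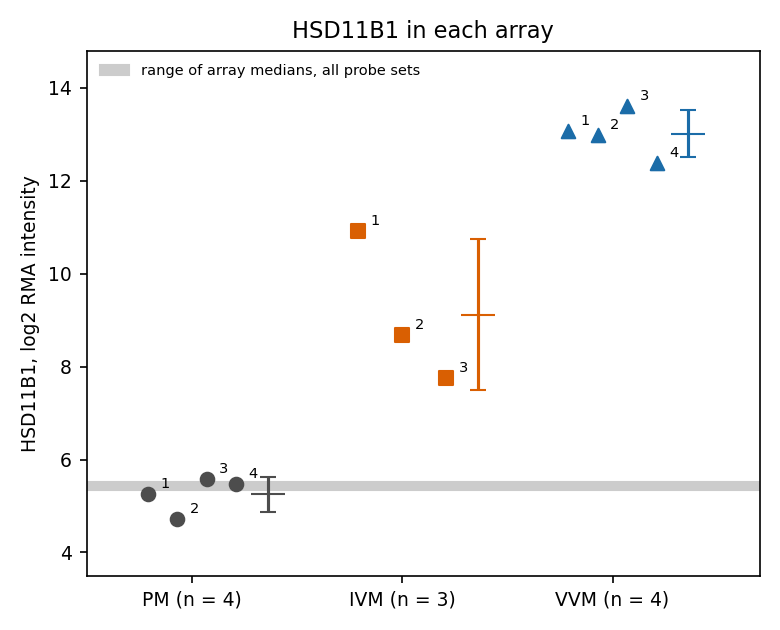
HSD11B1 level in each array (y axis, log2 RMA intensity) for PM, IVM and VVM (x axis), with array numbers, and the mean ± SD of each group beside the points. The grey band is the range of the array medians over all probe sets, 5.34 to 5.53. The PM arrays lie around it, the VVM arrays lie between 12.39 and 13.61, and the IVM arrays are spread from 7.75 to 10.91.

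The in vitro group was the uneven one. Its HSD11B1 intensities spanned a range of 8.94-fold, against 1.82-fold in PM and 2.34-fold in VVM. An SD of 1.62 was exceeded by 29 of the 14132 genes in IVM, where the median SD was 0.23. In PM and VVM, 2277 and 1433 genes had a larger SD than HSD11B1, with median SDs of 0.19 and 0.21. The IVM array with the highest HSD11B1, array 1, also had the largest excess of 3 prime over 5 prime signal in the GAPDH and beta-actin control probe sets, 4.36 against 3.67 to 3.68 in the other IVM arrays. The part of that difference in the spread was not tested.

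In vitro maturation left HSD11B1 at a lower level than in vivo maturation. The difference was -3.90 ± 0.58 (SE), a 14.9-fold lower level in IVM with a 95% confidence interval from 6.13 to 36.3 (limma, Benjamini-Hochberg adjusted p = 0.00217). It was the 14th lowest difference of 14132 genes. Of all genes, 16.7% were called (adjusted p under 0.05) in this comparison, 7.63% as lower in IVM, and 28.6% had groups that did not overlap. The two-sided exact permutation test gave p = 0.0571, the smallest that 35 splits of 3 and 4 arrays allow. Without IVM 1 the difference was -4.80 and without IVM 3 it was -3.22.

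From PM, HSD11B1 rose in both kinds of maturation. The rise to VVM was 7.77 ± 0.54 (SE), 218-fold with a 95% interval from 95.5 to 495 (adjusted p = 7.76e-06), and it was the highest VVM minus PM difference among the 14132 genes. The exact permutation p was 0.0286, the smallest that 70 splits allow. In this comparison 39.8% of genes were called, 18% as higher in VVM, and 41.9% had groups without overlap. The rise to IVM was 3.87 ± 0.58 (SE), 14.6-fold with an interval from 6.0 to 35.5 (adjusted p = 0.000546, exact permutation p = 0.0571, the smallest possible), 27th among the rises. Here 45.9% of genes were called, 25% as higher in IVM, and 50.3% did not overlap, so a call or a gap between these groups is common among genes. Because PM lay near the array medians, how much of its signal was background is not known, and both folds carry that uncertainty. Both rises share the PM arrays and are not independent of each other.

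The rise to IVM depended on the arrays and on measures that moved with the groups. It was 2.97 without IVM 1 and 4.55 without IVM 3. The 18 probe sets for bacterial hybridization controls averaged 9.86 to 10.24 in PM, 11.45 to 12.16 in IVM and 10.39 to 11.31 in VVM, with no overlap between groups. With that mean as a covariate the IVM minus PM difference was 2.06 ± 1.5 (SE) and its adjusted p was 0.62, in a fit that called 2 genes in place of 6492. In that limma fit none of the 55 IVM minus PM calls among the genes named in the text was kept, which holds for each such call below, and 3 of them changed sign. Of the 43 such IVM minus VVM calls 13 were kept, and those lost included NR3C1, CEBPA, SLC37A4, POR, FDXR, HSD3B2, PGR and IGFBP1. Of the 57 VVM minus PM calls 32 were kept, and those lost included SLC37A4, NR3C1, NCOA2, SERPINA6, RGS2 and IGFBP1. The part of the hybridization in these differences was not tested beyond that fit. With the 3 prime minus 5 prime excess as a covariate HSD11B1 was 2.37 ± 0.66 higher in IVM than in PM (adjusted p = 0.0384). The VVM minus PM difference was 6.82 with the control covariate, and the IVM minus VVM difference was -4.75.

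**Figure D2:**
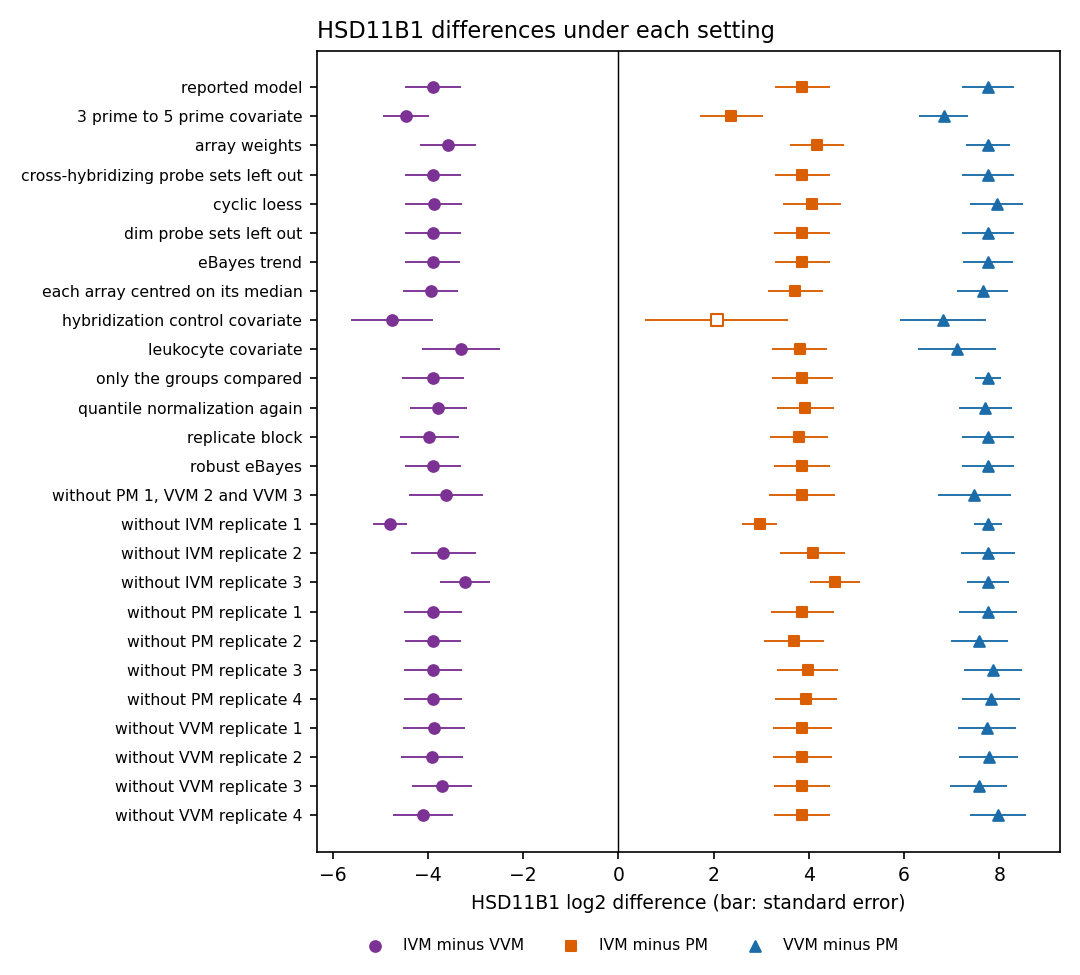
HSD11B1 log2 difference (x axis, bar: standard error) for the 3 comparisons under the reported model and each alternative (y axis). Filled symbols have an adjusted p under 0.05 and the open symbol does not. All IVM minus VVM values are negative, from -4.80 to -3.22, all values against PM are positive, and the single open symbol is IVM minus PM with the hybridization control covariate, 2.06.

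The other genes of cortisol interconversion, binding and clearance did not share this pattern. With HSD11B1 itself, 12 of the 19 listed genes were measured. In IVM against VVM 3 were higher (9.06% of all genes were) and 1, HSD11B1, was lower. From PM, 5 rose and 1 fell in IVM, and 3 rose and 2 fell in VVM, with HSD11B1 among the risers both times. Called were 33.3% in IVM minus VVM, 50% in IVM minus PM and 41.7% in VVM minus PM. Over all genes these shares were 16.7%, 45.9% and 39.8%, so those against PM were near the background. The medians were 0.16, 0.34 and 0.08 in these comparisons, against 0.08, 0.12 and 0.04 over all genes. HSD11B2, the enzyme of the reverse step, was not analysed here.

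The cofactor supply was measured through H6PD and SLC37A4. H6PD was dim, below the lowest array median in every array. It stood at 4.54, 4.73, 4.70 and 4.57 in PM, at 5.18, 5.16 and 4.44 in IVM and at 4.44, 4.65, 4.82 and 4.50 in VVM, and the groups overlapped. Its differences of 0.32 for IVM minus VVM, 0.29 for IVM minus PM and -0.03 for VVM minus PM did not pass the test, although the first and the second passed without IVM 3 (0.57 and 0.54). SLC37A4, the glucose 6-phosphate transporter, was at 9.66, 10.11, 9.66 and 10.36 in PM, 10.07, 10.33 and 10.43 in IVM and 8.68, 8.96, 8.81 and 9.49 in VVM. It was lower in all 4 VVM arrays than in any other array, with a fall of 0.96 ± 0.21 (SE) from PM (adjusted p = 0.00483), and IVM stood 1.29 ± 0.22 above VVM (adjusted p = 0.00431). The fall lost its call with the hybridization control (adjusted p = 0.137) and leukocyte (adjusted p = 0.158) covariates and without PM 1, VVM 2 and VVM 3 (adjusted p = 0.0573). Thus in VVM, where HSD11B1 was highest, SLC37A4 was at its lowest.

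HSD11B1L, a paralogue of less defined function, was higher in IVM than in VVM by 0.54 ± 0.11 (adjusted p = 0.00864) and than in PM by 0.53 ± 0.11, with a VVM minus PM difference of -0.01. SERPINA6, the plasma carrier of cortisol, averaged 4.99 ± 0.42 (SD, n = 4) before maturation, 6.80 ± 0.99 (SD, n = 3) after IVM and 7.18 ± 0.74 (SD, n = 4) after VVM. It rose in IVM by 1.82 ± 0.47 (0.76 and no longer called with the 3 prime minus 5 prime covariate) and in VVM by 2.19 ± 0.44 (SE), while the IVM minus VVM difference of -0.38 did not pass. Its highest IVM array was array 1 at 7.93, as for HSD11B1.

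Genes that clear cortisol moved separately. CYP3A5, a 6-beta-hydroxylase of steroids, averaged 3.74 ± 0.18 (SD, n = 4) before maturation, 9.08 ± 1.06 (SD, n = 3) after IVM and 5.25 ± 0.34 (SD, n = 4) after VVM. It was 3.82 ± 0.38 (SE) higher in IVM than in VVM (adjusted p = 0.000272), the reverse of HSD11B1. Its VVM minus PM rise of 1.51 ± 0.35 was 0.03 (adjusted p = 0.961) without the probe sets marked as able to cross-hybridize. CYP3A4, a close paralogue whose signal may not be separable, rose by 1.59 ± 0.49 in IVM over PM, and this call was lost if PM 2, PM 4 or IVM 1 was left out (0.85 to 1.49, adjusted p up to 0.0619). AKR1D1, the 5-beta-reductase, fell from PM by 1.09 ± 0.33 in IVM and 1.16 ± 0.31 in VVM. The first of these calls was lost without PM 2, PM 3, IVM 1 or IVM 2 (-1.09 to -0.91, adjusted p up to 0.0744). SRD5A3, AKR1C2, SULT2A1 and the exporter ABCB1 had no call in any comparison, with differences between -0.61 and 0.35. Of these, SRD5A3 passed for IVM minus PM without PM 2 (-0.79) or VVM 4 (-0.61), and ABCB1 without PM 4 (0.43) or IVM 3 (0.44).

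The receptor and its machinery mostly fell during maturation. Of 23 measured genes (28 listed), 15 fell and 4 rose in IVM against PM and 14 fell and 2 rose in VVM, with medians of -0.72 and -0.53. Of all genes, 20.9% fell in the first comparison and 21.8% in the second. Between IVM and VVM 4 were higher and 6 lower in IVM, with a median of -0.05. That is 43.5% called, against 16.7% of all genes (9.06% higher and 7.63% lower). Over all genes the medians were 0.12 for IVM minus PM, 0.04 for VVM minus PM and 0.08 for IVM minus VVM. NR3C1, the glucocorticoid receptor, was at 8.40, 8.14, 7.96 and 8.23 in PM, 6.55, 6.19 and 6.88 in IVM and 7.68, 7.57, 7.45 and 8.02 in VVM. The IVM arrays were below every other array, by 1.14 ± 0.18 (SE) against VVM (adjusted p = 0.0032) and 1.64 ± 0.18 against PM (adjusted p = 8.7e-05). For each, 1 of the 3 NR3C1 probe sets was called. The fall in VVM from PM, 0.50 ± 0.17 (adjusted p = 0.0446), was lost without PM 1, PM 2, PM 4, IVM 1, VVM 1, VVM 2 or VVM 3 (-0.52 to -0.43, adjusted p up to 0.119). NR3C2, the mineralocorticoid receptor, which also binds cortisol, was not analysed here.

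The chaperones FKBP4 and FKBP5, which compete for the receptor complex, went opposite ways from PM. FKBP4, which favours transport of the receptor to the nucleus, fell by 1.77 ± 0.23 in IVM and by 2.63 ± 0.21 in VVM. Its IVM minus VVM difference, 0.86 ± 0.23, lost its call without IVM 1, IVM 3, VVM 1, VVM 3 or VVM 4 (0.66 to 0.88, adjusted p up to 0.106). FKBP5, which lowers the affinity of the receptor for cortisol and is itself a target of it, was at 5.82, 5.80, 5.86 and 6.03 in PM, 8.17, 8.02 and 8.23 in IVM and 9.16, 7.82, 9.36 and 8.38 in VVM. It rose by 2.26 ± 0.30 in IVM (adjusted p = 0.000239) and by 2.80 ± 0.28 in VVM (adjusted p = 4.42e-05), and IVM and VVM overlapped. The IVM minus VVM difference of -0.54 did not pass, and it passed without VVM 2 (-0.83, adjusted p = 0.0428). BAG1, a co-chaperone, fell by 1.33 ± 0.21 and 1.95 ± 0.20.

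Several coregulators, but not all, were lowest in IVM. NCOA2, a coactivator also known as GRIP1, fell by 2.79 ± 0.21 from PM to IVM and by 1.06 ± 0.19 to VVM, and was 1.73 ± 0.21 lower in IVM than in VVM (adjusted p = 0.000638). The corepressor NCOR1 fell by 2.68 ± 0.32 and 1.38 ± 0.29. It was 1.30 ± 0.32 lower in IVM than in VVM, a call lost without IVM 1, IVM 2, VVM 1 or VVM 2 (-1.32 to -0.88, adjusted p up to 0.0708). NCOA4, a coactivator also known as a carrier of ferritin, was 1.05 ± 0.17 lower in IVM than in VVM. CARM1, a methyltransferase that acts as a coactivator and was named after its values were seen, was 0.64 ± 0.12 higher in IVM than in VVM. Between them the list held coactivators and corepressors that moved the same way, so its counts give no direction of receptor activity.

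Genes known to respond to glucocorticoids were then read in the same fits. This list was chosen from general knowledge of other tissues, with earlier results of these data known. Many of its genes answer to other signals as well. Of 52 measured (70 listed), 25 rose after IVM and 7 fell, while 26 rose after VVM and 4 fell, with medians of 0.50 and 0.81 against 0.12 and 0.04 over all genes. Between IVM and VVM 12 were lower in IVM and 4 higher, with a median of -0.34 against 0.08. That is 30.8% called, against 16.7% of all genes (7.63% lower and 9.06% higher in IVM). Without IVM 2 the 12 and 4 became 5 and 2. With the mean of 4 leukocyte genes (described further on) as a covariate they became 4 and 2, with a median of -0.17. For the background, 3539 genes passed as higher and 2953 as lower after IVM, against 2548 and 3074 after VVM. Centring each array on its median turned these into 2078 and 3406, and 1708 and 3530, and moved all differences by -0.15 and -0.11, with 21 and 8, and 22 and 5, of the listed genes called.

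Targets picked from this list diverged, and they do not stand for the whole of it. ZBTB16, a transcription factor strongly induced by glucocorticoids and progestins, was named after its values were seen, as were TSC22D3, PER1 and SPSB1. It averaged 8.05 ± 0.28 (SD, n = 4) before maturation, 10.74 ± 0.34 (SD, n = 3) after IVM and 11.09 ± 0.51 (SD, n = 4) after VVM, with rises of 2.70 ± 0.27 and 3.05 ± 0.25 (SE). TSC22D3, which encodes the anti-inflammatory protein GILZ, did not pass in any comparison, with differences of -0.71 for IVM minus VVM, 0.18 for IVM minus PM and 0.88 for VVM minus PM. The first and the last passed without IVM 3 (-1.25 and 0.88). PER1, a clock gene, fell by 1.88 ± 0.34 in IVM and was also called lower in IVM than in VVM. The latter call was lost without IVM 1, IVM 2, IVM 3, VVM 1, VVM 2 or VVM 3 (-1.30 to -1.10, adjusted p up to 0.129). SPSB1, an adaptor of ubiquitin ligases, fell by 2.59 ± 0.22 in IVM and 3.04 ± 0.21 in VVM.

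ACSL1 and ZFP36 followed the order of HSD11B1, and IGFBP1 did so only in its VVM step. ACSL1, which activates fatty acids, was at 5.17, 5.00, 5.07 and 5.17 in PM, 9.58, 7.11 and 7.77 in IVM and 10.78, 9.88, 10.24 and 10.50 in VVM. The groups did not overlap, array 1 was again the highest of IVM, and the differences were -2.20 ± 0.45 for IVM minus VVM, 3.05 ± 0.45 for IVM minus PM and 5.25 ± 0.42 for VVM minus PM. ZFP36, which destabilises inflammatory mRNAs, rose by 2.24 ± 0.49 in IVM and 4.30 ± 0.45 in VVM. Its IVM minus VVM difference of -2.06 ± 0.49 lost its call without IVM 2 or IVM 3 (-2.15 to -1.63, adjusted p up to 0.0642). IGFBP1, which binds insulin-like growth factors, differed in VVM alone: it was 4.13 ± 0.71 lower in IVM than in VVM (adjusted p = 0.00431) and 4.38 ± 0.66 higher in VVM than in PM, with an IVM minus PM difference of 0.25 that did not pass.

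The other targets described here had no call between IVM and VVM, or differed from the order of HSD11B1. ANXA1 and STOM, also on the list, were called at each step in the order of HSD11B1. Both were named after their values were seen and are not in the counts of named genes. ANXA1 lost its IVM minus PM call without PM 1, IVM 2 or IVM 3 (0.74 to 0.84). STOM lost its IVM minus VVM call in 9 of the fits without 1 array (-1.04 to -0.71). RGS2, a brake on G protein signalling, rose by 5.65 ± 1.01 in IVM and 5.61 ± 0.94 in VVM, CRISPLD2, a secreted protein, by 3.12 ± 0.41 and 4.04 ± 0.38, and GADD45B, a stress gene, by 3.33 ± 0.66 and 4.08 ± 0.61. The IVM minus VVM differences of 0.04 for RGS2, -0.92 for CRISPLD2 and -0.75 for GADD45B did not pass. PCK1, the gluconeogenic enzyme and a classical hepatic target, was 3.42 ± 0.50 higher in IVM than in VVM and 2.81 ± 0.50 higher than in PM. TIPARP, an ADP-ribosyltransferase, fell by 2.18 ± 0.32 in IVM from PM and had an IVM minus VVM difference of -2.99 ± 0.32.

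**Figure D3:**
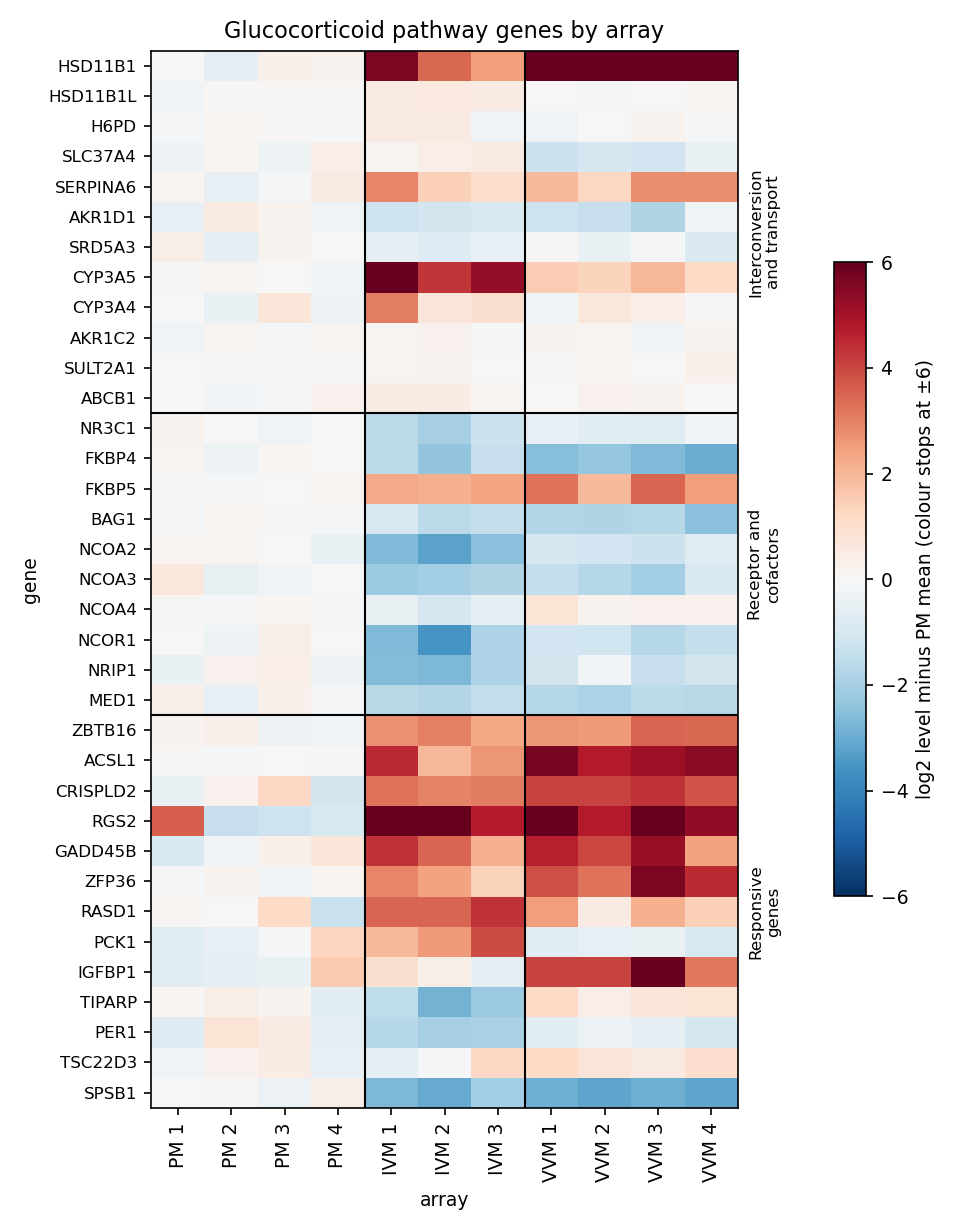
Level of each gene (rows) in each array (columns) minus its PM mean, in log2 units, with the colour scale ending at 6 in either direction. HSD11B1 rises from PM through IVM to VVM, while NR3C1, FKBP4 and most coregulators are below PM, FKBP5, ZBTB16 and ACSL1 are above it, and CYP3A5 and PCK1 are highest in IVM.

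Candidate regulators of HSD11B1 were a separate list, of which 25 of 34 were measured. In IVM against VVM 3 were higher and 4 lower, in IVM against PM 8 rose and 3 fell, and in VVM against PM 9 rose and 5 fell. That is 28%, 44% and 56% called, against 16.7%, 45.9% and 39.8% of all genes, so the IVM minus PM share was near the background. The medians were -0.05, 0.35 and 0.29, against 0.08, 0.12 and 0.04 over all genes. CEBPA, a transcription factor known to drive HSD11B1 in liver and fat cells, was at 4.80, 4.09, 4.22 and 6.45 in PM, 9.65, 8.67 and 8.15 in IVM and 11.48, 11.01, 11.71 and 10.97 in VVM. The groups did not overlap, the IVM arrays kept the order of their HSD11B1 levels and so did arrays 3 and 4 at the ends of VVM. The differences were -2.47 ± 0.52 (SE) for IVM minus VVM (adjusted p = 0.0114), 3.93 ± 0.52 for IVM minus PM (adjusted p = 0.00024) and 6.40 ± 0.48 for VVM minus PM (adjusted p = 1.07e-05), with 3 of 3 probe sets called each time. The first lost its call with the leukocyte covariate (-2.18, adjusted p = 0.134) and in the fit without the arrays PM 1, VVM 2 and VVM 3 (-2.40, adjusted p = 0.0883). Over the 11 arrays the Pearson correlation of CEBPA with HSD11B1 was 0.97, and it was 0.61 for deviations from the group means. Of the genes ranked further on, the 166 with a correlation above 0.9 had a median of 0.45 for such deviations. The points of each correlation share array, scaling and group, and the values are a description.

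The related factors CEBPB and CEBPD did not separate IVM from VVM. CEBPB, which also binds the HSD11B1 promoter, rose by 2.21 ± 0.34 in IVM and 2.42 ± 0.31 in VVM, and CEBPD rose by 2.42 ± 0.21 and 1.98 ± 0.19. The IVM minus VVM differences of -0.20 and 0.43 did not pass. PGR, the progesterone receptor, was 1.42 ± 0.26 higher in IVM than in VVM, and CREB1, the cyclic AMP response factor, had an IVM minus VVM difference of -0.82 ± 0.16 and fell by 2.71 ± 0.16 from PM to IVM.

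Interleukin 1, a known inducer of HSD11B1, was uneven within VVM. IL1B was at 6.14 to 6.28 in PM, at 9.53, 6.75 and 6.62 in IVM and at 7.29, 11.58, 11.68 and 9.93 in VVM. It rose by 3.89 ± 0.90 (SE) from PM to VVM (adjusted p = 0.00723). That call was lost with the leukocyte (1.43), hybridization control (0.68) and 3 prime minus 5 prime (2.07) covariates and without PM 1, VVM 2 and VVM 3 (2.39, adjusted p = 0.134), and VVM 2 and VVM 3 also had the highest leukocyte means. The IVM minus VVM difference of -2.49 ± 0.97 did not pass (it was -3.43 without VVM 1, adjusted p = 0.0149). The decoy receptor IL1R2 was 1.74 ± 0.32 lower in IVM than in VVM. IL1R1, the signalling receptor, and PTGS2, the prostaglandin synthase, were not analysed here.

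Genes of steroid synthesis were also read, 23 of 40 listed being measured. The list spans cholesterol transport, the routes to progesterone, androgen, oestrogen and corticosteroid, and their transcription factors. In IVM against PM 14 rose and 2 fell and in VVM against PM 10 rose and 5 fell, with medians of 0.53 and 0.34 against 0.12 and 0.04 over all genes. Over all genes 25% and 18% rose and 20.9% and 21.8% fell. Between IVM and VVM 6 were higher in IVM and 1 lower (9.06% and 7.63% of all genes), with a median of 0.05 against 0.08. STAR, which moves cholesterol into the mitochondrion, went from 6.31 ± 1.32 (SD, n = 4) before maturation up to 12.03 ± 0.74 (SD, n = 3) after IVM and 13.01 ± 0.44 (SD, n = 4) after VVM, and the IVM minus VVM difference of -0.98 did not pass. HSD3B2, which lies on the route from pregnenolone to progesterone and cortisol, was at 10.56, 9.96, 11.05 and 11.38 in PM, 13.27, 12.65 and 12.49 in IVM and 9.58, 11.05, 11.07 and 10.74 in VVM. All IVM arrays were above every other array, with an IVM minus VVM difference of 2.19 ± 0.40 (SE) and a rise from PM of 2.07 ± 0.40, while the VVM minus PM difference of -0.13 did not pass. The rise lost its call with the 3 prime minus 5 prime covariate (1.47, adjusted p = 0.108). POR, which feeds electrons to the microsomal P450 enzymes, was 1.68 ± 0.27 higher in IVM than in VVM, as was FDXR, its mitochondrial counterpart, by 1.24 ± 0.25. The POR call was lost when each gene was read as the mean over its probe sets. HSD17B1, which makes oestradiol, fell by 3.32 ± 0.43 from PM to VVM. CYB5A, which encodes cytochrome b5, and HSD17B7, of cholesterol and oestradiol synthesis, rose in IVM and VVM, CYB5A by 1.62 ± 0.14 and 1.59 ± 0.13 and HSD17B7 by 1.94 ± 0.29 and 2.48 ± 0.27. CYP17A1, needed on the way to cortisol, had no array above 5.04, below the lowest array median, and CYP11A1 was not analysed here.

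Genes with profiles most like that of HSD11B1 were ranked by Pearson correlation over the 11 arrays, among 6564 genes brighter than the median gene and with a symbol that is not a placeholder. Correlations above 0.9 were held by 166 genes and below -0.9 by 304, so such profiles were common, and the arrays share scaling and group. The 8 highest were ABHD5 (0.985), RORA (0.981), PDLIM5 (0.981), ACSL1 (0.980), DNAJC1 (0.978), NIBAN2 (0.976), VMP1 (0.975) and SMPDL3A (0.974). ABHD5, a coactivator of triglyceride hydrolysis, was also the closest of them for deviations from the group means (0.937). Its values were 5.91, 5.55, 6.36 and 5.77 in PM, 8.27, 6.91 and 6.52 in IVM and 9.32, 8.74, 9.58 and 8.69 in VVM. RORA, a nuclear receptor, followed with 0.83 within groups. The most opposed were MPDU1 (-0.988), GATA4 (-0.983), TEPSIN (-0.981) and PCDH18 (-0.979), and GATA4, a transcription factor of granulosa cells, fell by 1.62 ± 0.23 from PM to IVM and 2.94 ± 0.21 to VVM.

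**Figure D4:**
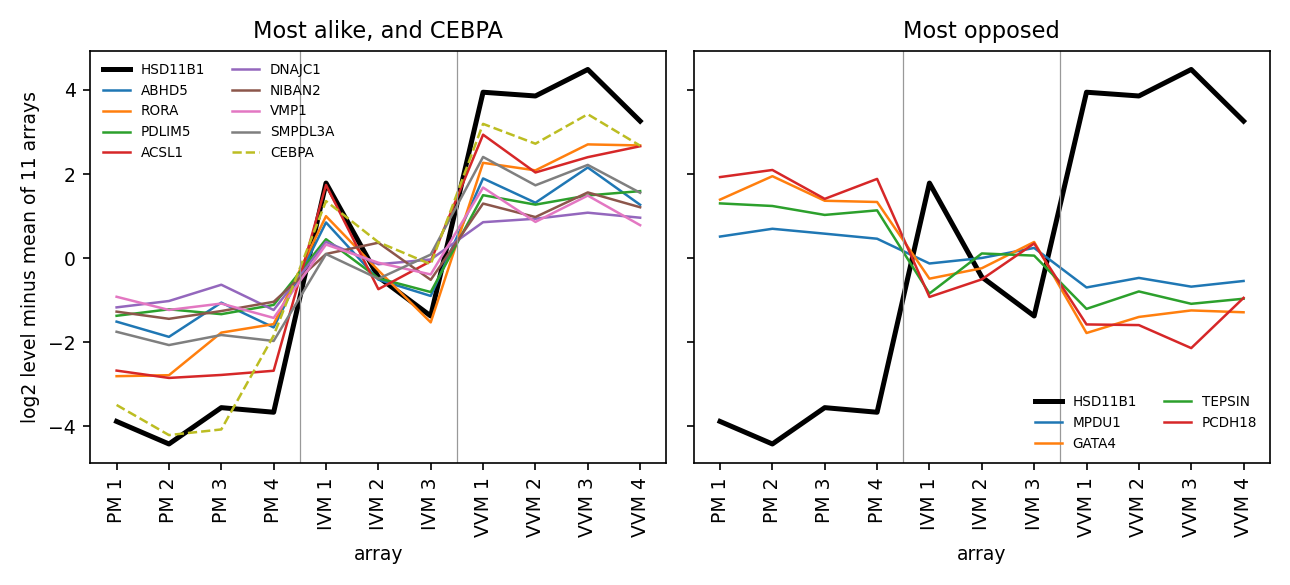
Level of each gene minus its mean over the 11 arrays (y axis, log2) by array (x axis), for HSD11B1 with the 8 most alike genes and CEBPA (left) and with the 4 most opposed (right). The alike genes step up from PM to IVM to VVM. Among the IVM arrays, array 1 is the highest for HSD11B1, CEBPA and all the alike genes except NIBAN2.

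Markers of other cell types were set beside HSD11B1, since leukocytes and theca or stromal cells can express it. The mean of LYZ, TYROBP, CD14 and PTPRC was 4.24 to 4.56 in PM, 4.50 to 4.70 in IVM, and 5.41, 7.48, 8.70 and 5.36 in VVM 1 to 4. Of the 15 leukocyte markers measured, 8 rose and 2 fell in VVM from PM, and 3 were lower and none higher in IVM than in VVM. Over all genes 18% rose and 21.8% fell in the first comparison and 7.63% were lower in the second. LYZ, TYROBP, CD14 and PTPRC were all among the 8 markers that rose. CSF1R, the brightest of the list in PM, was among the 2 that fell, and it is not in the counts of named genes. A covariate made of other leukocyte markers was not tested. The summed intensity of the list was 1695 to 1889 in PM, 1054 to 1265 in IVM and 1037 to 6509 in VVM. VVM 1 and VVM 4, with the lower leukocyte means of that group, which were still above those of IVM, had HSD11B1 at 13.07 and 12.39. VVM 2 had it at 12.98, and VVM 3, with the highest leukocyte mean, had the highest HSD11B1, 13.61. VVM 4 had the lowest of both in that group. With VVM 2, VVM 3 and PM 1 left out, the IVM minus VVM difference was -3.61 (adjusted p = 0.0318), and with the leukocyte mean as a covariate it was -3.30 (adjusted p = 0.0436). Of the 43 IVM minus VVM calls among the genes named in the text 22 were kept with that covariate, and those lost included SLC37A4, HSD11B1L, CEBPA, ACSL1, ABHD5, RORA, IGFBP1, ZFP36 and PGR. Of the 57 VVM minus PM calls 38 were kept, and those lost included SLC37A4, SERPINA6, CYP3A5, AKR1D1, NR3C1, NCOA2, NCOR1, GADD45B, IGFBP1 and IL1B.

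Theca markers were read next. Of 8 measured, 4 were higher and none lower in each of IVM and VVM against PM, and 2 were lower in IVM than in VVM. These shares of 50%, 50% and 25% compare with 45.9%, 39.8% and 16.7% of all genes called. Their summed intensity was 542 to 813 in PM, 2442, 919 and 791 in IVM 1 to 3, and 1315 to 4025 in VVM. HHIP, one of the brighter members, was at 9.83, 6.14 and 6.93 in IVM and 9.37 to 11.08 in VVM. CYP17A1, the defining steroidogenic enzyme of theca, was below the lowest array median in all 11 arrays, and INSL3 was not analysed here. Summed stromal markers were 717 to 2188 in PM, 885 to 1795 in IVM and 1208 to 1723 in VVM, and oocyte markers were 782 to 2679, 882 to 930 and 773 to 1219. The 2679 came from PM 1 alone, and the other PM arrays summed to 782 to 862. The endothelial list summed to 657 to 683 in PM, 1112 to 1303 in IVM and 762 to 1589 in VVM, the epithelial list to 578 to 769, 1256 to 2986 and 751 to 933, and the erythroid list to 492 to 1442, 279 to 375 and 587 to 2105. The part of theca, stromal, endothelial, epithelial, erythroid and oocyte RNA in the HSD11B1 differences was not tested.

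**Figure D5:**
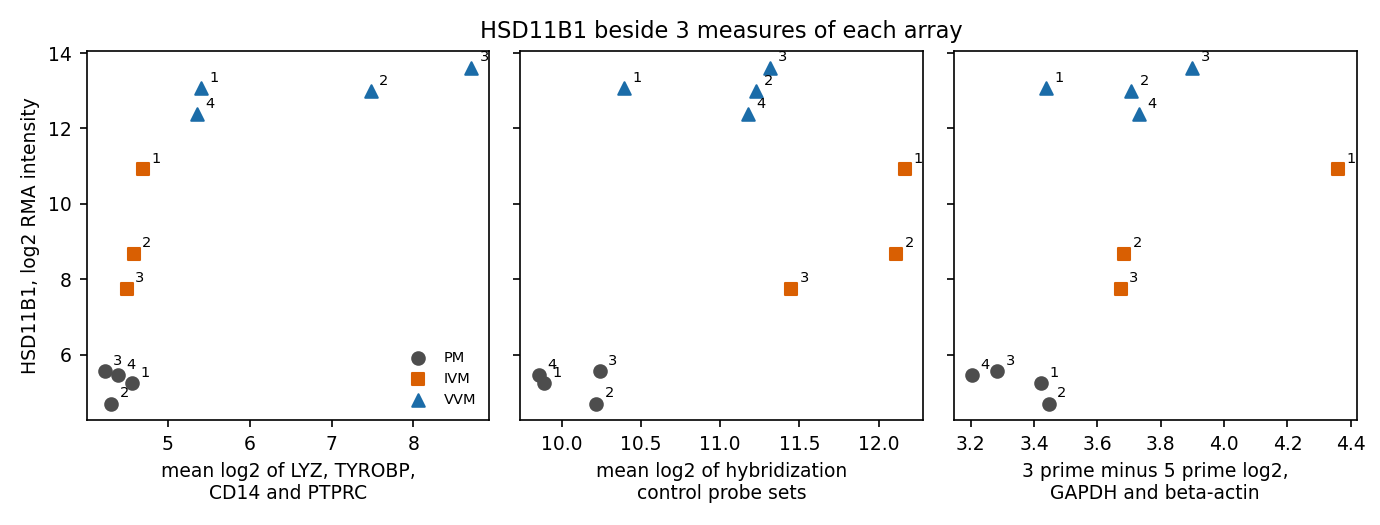
HSD11B1 (y axis, log2 RMA intensity) against the mean log2 of 4 leukocyte genes, the mean log2 of the hybridization control probe sets, and the 3 prime minus 5 prime log2 of GAPDH and beta-actin (x axes), 1 point per array with its number. VVM 1 and VVM 4 have leukocyte means of 5.41 and 5.36 with HSD11B1 at 13.07 and 12.39. VVM 2 and VVM 3 have leukocyte means of 7.48 and 8.70 with HSD11B1 at 12.98 and 13.61. IVM 1 has the highest 3 prime excess, 4.36.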

How the data were processed

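The authors deposited 1 table of RMA intensity values for 52865 probe sets and 11 arrays, made per the submitters' processing notes with Affymetrix Expression Console and RMA, which corrects background, quantile-normalizes arrays and summarises probes. Versions, settings and genome build are not given in the sources used here. Per the labels' protocols, 50 ng of total RNA was amplified over repeated rounds before labelling, which can compress or distort low signals and favours 3 prime ends. The intensities were on a linear scale, so log2 was taken with no pseudocount. Control probe sets (99) were left out of the tests. Symbols came from the array annotation, updated through gene identifiers to RefSeq (24629 of 25330 rows matched), and the RefSeq coordinates served only to order neighbouring genes and see whether their spans overlap. Each gene was read from its brightest single-symbol probe set (by mean log2).

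Group differences came from limma 3.58.1 (R 4.3.3), 1 model with 3 group means and empirical Bayes moderation (8 residual and 3.30 prior degrees of freedom), Benjamini-Hochberg adjusted over 52766 probe sets per comparison, threshold 0.05. It was tested on simulated data. The permutation test of HSD11B1 was two-sided and exact. HSD11B1 and the gene lists were chosen with earlier results of these data known. Named genes were every measured gene of the interconversion list, NR3C1, FKBP4, FKBP5 and PGR, up to 5 called genes with the largest absolute difference per list and comparison, the 8 most alike and 4 most opposed profiles, and bright cell type markers. The genes of the leukocyte mean were also named, and no rule for choosing them is given. Others are said to be named after their values were seen. FSHR, FOXL2, HSD11B2 and other genes without a single-symbol probe set are listed as not analysed here. No pairing by replicate number was used in the reported model. Residuals of same-numbered arrays correlated between -0.107 and 0.101. Differently numbered arrays were not set beside them, so this cannot settle whether the numbers pair the arrays. The number of arrays limits the precision. Alternatives changed normalization, filters, prior, weights, covariates and the arrays used.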

Additional observations from a re-analysis of the deposited data

Results flagged for a closer look

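In a group of 4 arrays, a single array can stand apart from the other 3. This was checked with Dixon's test at the 95% level in the PM and VVM groups for the 77 genes named in the text. Chance flags about 1 in 20 groups, and 13 of 154 groups (8.44%) stood out. HSD11B1 was not among them. In the glucocorticoid pathway, HSD11B1L was at 8.35 in PM 1 against 8.58 to 8.61 in the other PM arrays, and AKR1C2 at 5.24 in VVM 3 against 5.62 to 5.69. BAG1 was at 7.46 in VVM 4 against 8.16 to 8.29, and NCOA4 at 12.59 in VVM 1 against at most 12.06 in the others. Among responsive genes, RGS2 was at 10.83 in PM 1 against 5.89 to 6.30, and IGFBP1 at 5.61 in PM 4 against 3.40 to 3.59. PM 1 also had the highest summed oocyte markers. POR was at 12.11 in PM 3 against 11.91 to 11.93, and HSDL1 at 10.41 in VVM 2 against 8.26 to 8.56. GATA4 was at 11.32 in PM 2 against 10.71 to 10.76, INHA at 14.01 in PM 3 against 13.78 to 13.80, and VCAN at 12.51 in PM 4 against 12.72 to 12.76. Of the leukocyte genes, LYZ was at 4.10 in PM 1 against 3.36 to 3.41, and TYROBP at 4.51 in PM 2 against 4.91 to 4.94.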

How the results depend on the processing

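HSD11B1 kept its direction in all 25 alternatives of each comparison and its call in all but 1: IVM minus PM with the hybridization control covariate (2.06, adjusted p = 0.62). Leaving out 1 array gave -4.80 to -3.22 for IVM minus VVM, 2.97 to 4.55 for IVM minus PM and 7.57 to 7.97 for VVM minus PM. The replicate number as a block gave -3.97, 3.80 and 7.77, all called, and 1941, 5608 and 5155 genes called, and no call of HSD11B1 changed. Counts of genes called moved more: from 6492 in IVM minus PM to 2442 with the 3 prime to 5 prime covariate, 2528 at 2-fold or more and 2 with the hybridization controls; from 2358 in IVM minus VVM to 1128 at 2-fold or more, 322 with the controls, 1215 with the leukocyte covariate and 1393 without PM 1, VVM 2 and VVM 3; and from 5622 in VVM minus PM to 3298, 2401, 1487, 2461 and 3025 under these 5 in turn. Without 1 array these counts ran from 5062 to 6584, 1423 (without IVM 2) to 2268 and 4546 to 5781. Target genes called went from 32 in IVM minus PM to 20 with the 3 prime to 5 prime covariate and 0 with the controls (limma; 17 of 52 had an unadjusted p under 0.05), from 16 in IVM minus VVM to 9 with array weights, 4 with the controls, 6 with the leukocyte covariate and 9 without the 3 arrays, and from 30 in VVM minus PM to 14 and 19 with the controls and the leukocyte covariate. Without 1 array they ran from 30 to 33, 7 to 17 and 27 to 31. The cause was not tested. Only 1 probe set carried the symbol, so no alternative probe set of HSD11B1 could be tried. Signal over background was not used here, so levels near the array medians, PM included, are uncertain as levels, and 3 IVM arrays limit that group.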

Other observations

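HSD11B1 belongs to the short-chain dehydrogenases, of which 36 of 48 other listed members were measured. In IVM against PM 15 rose and 5 fell, in VVM against PM 10 rose and 6 fell, and in IVM against VVM 5 were higher and 3 lower, with medians of 0.27, 0.20 and 0.03. In total these are 55.6%, 44.4% and 22.2% called, near the 45.9%, 39.8% and 16.7% of all genes. By direction, 25% of all genes rose and 20.9% fell in IVM against PM, and 18% rose and 21.8% fell in VVM. In IVM against VVM, 9.06% of all genes were higher and 7.63% lower. DHRS9, which acts on retinol and 3-alpha-hydroxysteroids, averaged 5.36 ± 0.19 (SD, n = 4) before maturation, 10.36 ± 1.43 (SD, n = 3) after IVM and 10.77 ± 1.04 (SD, n = 4) after VVM, with rises of 5.00 ± 0.63 and 5.42 ± 0.58 (SE) and an IVM minus VVM difference of -0.41 that did not pass. CBR1, a carbonyl reductase, was 1.26 ± 0.13 higher in IVM than in VVM, and HSDL1 2.70 ± 0.45 higher. Of 15 measured genes of NADPH and hexose phosphate supply (20 listed), 2 rose and 7 fell in VVM against PM and 5 rose and 6 fell in IVM, which is 60% and 73.3% called against 39.8% and 45.9% of all genes. TALDO1, of the pentose phosphate pathway, was 0.95 ± 0.12 higher in IVM than in VVM, and the glucose transporter SLC2A3 had an IVM minus VVM difference of -2.62 ± 0.36.

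The genes next to HSD11B1 in the RefSeq order of the T2T-MMU8v2.0 assembly were read after the values were seen. LAMB3, whose span overlaps that of HSD11B1, was not analysed here. G0S2, an inhibitor of triglyceride hydrolysis whose span also overlaps, rose by 2.08 ± 0.27 (SE) from PM to IVM and by 1.85 ± 0.25 to VVM, and its IVM minus VVM difference of 0.23 did not pass. C1H1orf74 fell by 1.85 ± 0.38 and 1.94 ± 0.35, and UTP25 by 0.93 ± 0.22 and 2.39 ± 0.20. TRAF3IP3 rose by 0.48 ± 0.12 in VVM, and CAMK1G had no call, with differences of -0.01 to 0.23. None of these 5 repeated the order of HSD11B1 with a call at each step.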
